A study of Homo sapiens with 6 samples.

Results

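The 57 genes described here encode regulators of mitotic entry, the spindle assembly checkpoint, kinetochores, the spindle and condensin. They were chosen by name from textbook mitosis genes, with earlier results of these data known, and the kinesins named KIF were left out. All 57 were among the 47470 genes listed in the count files. RNA-seq was performed on HEK293T, an established line from human embryonic kidney. These cells express SV40 large T antigen, which binds the retinoblastoma proteins that hold back cell cycle genes. The untreated group held 3 libraries from wild-type cells with no treatment, and the VPA-treated group held 3 libraries from the same line that had received valproic acid (VPA) at 1 mM for 1 day. VPA inhibits histone deacetylases. All libraries came from this single line, and the labels do not say whether the libraries of a group came from separate cultures, so that the spread between them may be technical. The comparison asked how the RNA of mitosis genes differed between VPA-treated and untreated cells.

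A dividing cell enters mitosis when cyclin A and cyclin B activate the kinase CDK1, a step that WEE1 opposes and the CDC25 phosphatases allow. Kinetochores assemble on centromeric chromatin and bind spindle microtubules, and the spindle checkpoint holds back the anaphase-promoting complex (APC/C) until each chromosome is attached. Most genes of this program are transcribed late in the cell cycle from promoters that carry CCAAT boxes, bound by NF-Y, and the cell cycle genes homology region (CHR), bound by the MuvB core of the DREAM and MYB complexes. In bulk RNA, fewer cells in G2 and mitosis and less RNA per cell cannot be told apart.

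The libraries held between 18622267 and 18828495 counts on genes, so that depth differed little. Of the HEK293T line markers all 8 were counted in every library, with summed counts of 18616 to 19041 in untreated and 23258 to 24502 in VPA-treated cells. They did not move alike. In the edgeR fit described below 6 were higher and 2, VIM and CDH2, lower, beside 32.9% and 30.0% of all tested genes. Markers of other cell types were near 0, with summed counts of 19 to 34 in untreated and 38 to 48 in VPA-treated libraries for 5 blood cell markers, 0 to 4 and 18 to 25 for 3 endothelial markers, and 0 to 3 and 1 to 2 for 3 liver markers. No marker was at 0 in all 6 libraries, while the blood cell marker PTPRC was at 0 in all untreated and at 3 to 5 counts in VPA-treated libraries. The part of these cell type markers in the results was not tested. Libraries of a group differed by more than sampling noise, and each was counted as 1 replicate.

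Mitosis genes were mostly lower in VPA-treated cells by small amounts with TMM normalization, and their median turned to slightly above 0 with ribosomal protein scaling. With TMM 39 of the 57 members fell, 2 rose and 16 did not pass an adjusted p of 0.05 by edgeR's quasi-likelihood test, where 30.0% of all 15298 tested genes fell and 32.9% rose. All 57 members passed the filter on low counts. Among all genes of like mean count, taken as the class of mean count that each member fell in, 53.3% were lower, against 68.4% of the members, and the same share is given with each group of members below. The log2 fold changes lay between -0.60 for CCNA2 and 0.19 for CENPE, so that no member reached a size of 1, which 12% of tested genes reached upwards and 0.503% downwards with an adjusted p under 0.05. In 38 of the 57 members every VPA-treated library lay below every untreated library, against 31.0% of tested genes, and in 2 every VPA-treated library lay above, against 34.8%. These 2 shares cover tested genes of all mean counts and were not taken among genes of like mean count. The median of the members was -0.21 and that of all tested genes 0.0058. The members together took 0.875%, 0.875% and 0.893% of the gene counts of untreated cells and 0.852%, 0.851% and 0.864% of those of VPA-treated cells. Every VPA-treated library thus gave the members a smaller share than every untreated library.

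The scaling of the libraries decided how many members were called lower. It also moved all genes together, with the median of all tested genes at 0.14 with library totals and at 0.28 when the ribosomal protein genes set the scale. With upper quartile scaling 31 members were lower and 6 higher, beside 22.3% and 38.0% of all tested genes. With library totals 25 members were lower and 10 higher, beside 15.5% and 43.9% of all tested genes. With ribosomal protein scaling 3 members were lower and 23 higher, beside 5.45% and 61.1%, and the median of the members turned to 0.068. The distance of the members' median from that of all tested genes was -0.21 under all 5 scalings. It stayed the same by construction, since a scaling shifts all genes together, so it is no separate check of the fall. Relative to the median of all tested genes 49 of the 57 members lay lower, and relative to the median of their own class of mean count 37 did. The sign was negative under all 5 scalings in 20 members and positive under all 5 in 7, and it depended on the scaling in the other 30. CCNA2, CDC25A and CDCA3 were called lower, and CENPE and KNL1 called higher, under each of the 5. In what follows, "fell" and "rose" refer to TMM normalization, and the members whose sign turned under another scaling are given with each group.

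**Figure D1:**
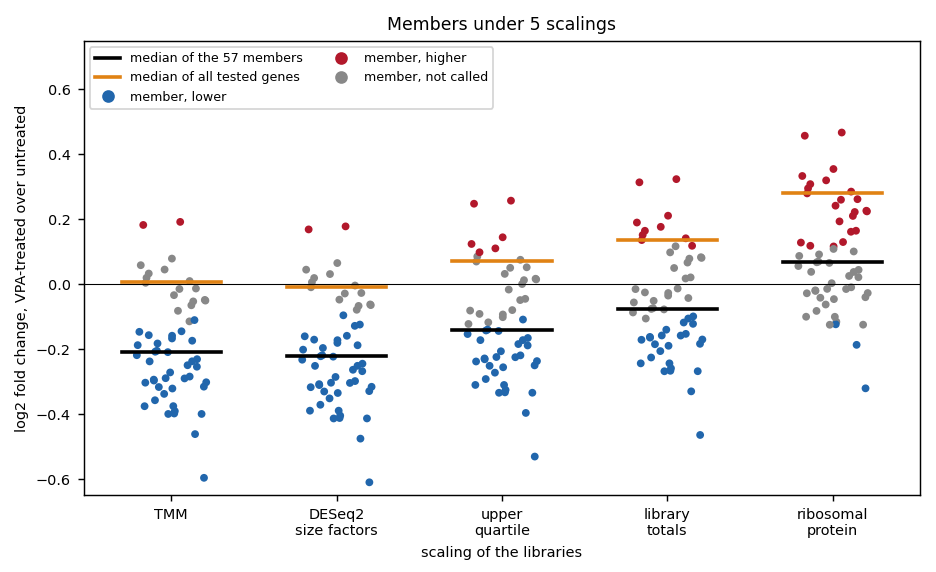
Log2 fold change of each of the 57 members (points, VPA-treated over untreated) under 5 scalings of the libraries, coloured by the call at an adjusted p of 0.05, with the median of the members (black bar) and of all tested genes (orange bar). The members' median lies 0.21 below that of all genes in each column, a distance that a scaling cannot change. The members' median itself moves from -0.21 with TMM to 0.068 with ribosomal protein scaling, where 23 members are called higher and 3 lower.

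Most members with a promoter window held the motifs named above for genes of this program. The choice by name did not use the motifs, but mitosis genes are known for them, so the shares are a description. RefSeq promoter windows on GRCh38.p14, from 250 bases before to 50 bases after the start, were at hand for 45 of the 57 members, and the first window listed was read for the 9 members with several. The CHR letters TTTGAA were found on either strand in 32 of these 45 windows (71.1%), compared with 9.53% of the 11739 tested genes with a window and 15.4% of all 27305 windows. A CHR starting within the 50 bases before the start was present in 18 members (40%) and in 1.45% of the tested genes. The CCAAT box, CCAAT on either strand, was in 34 members (75.6%) and in 36.1% of the tested genes, and both motifs were in 24 members (53.3%) and in 4.01% of the tested genes. An E2F site, TTTCGCGC or TTTGGCGC, was in 4 members (8.89%) and in 2.02% of the tested genes. CHR and CCAAT matches shared letters in 2 member windows. When any listed window counted, a CHR was in 33 of the 45 members (73.3%) and in 13.6% of the tested genes.

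The CHR was found both among members that fell and among those not called. It was in 19 of the 28 members with a window that fell (67.9%) and in 13 of the 16 that were not called (81.2%), and these 2 shares were not tested against each other. The 150 bases before the start are shown for 6 members, read 5′ to 3′ on the gene's strand, with CHR and CCAAT letters in capitals (a CCAAT box on the opposite strand reads ATTGG). CCNA2 had the largest fall and holds a CCAAT box but no TTTGAA, while CCNB2 and PLK1 fell and hold both motifs close to the start. MKI67 and HMMR hold both motifs and were not called, and CENPE rose and holds neither TTTGAA nor CCAAT. Only these exact letters were searched, so a CHR with other letters was not counted, in CCNA2 and CENPE as in all windows.
CCNA2, chr4:121823884-121824033, minus strand: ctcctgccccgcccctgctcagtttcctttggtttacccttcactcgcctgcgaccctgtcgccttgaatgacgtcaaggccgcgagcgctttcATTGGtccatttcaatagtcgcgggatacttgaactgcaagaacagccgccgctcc
CCNB2, chr15:59104996-59105145, plus strand: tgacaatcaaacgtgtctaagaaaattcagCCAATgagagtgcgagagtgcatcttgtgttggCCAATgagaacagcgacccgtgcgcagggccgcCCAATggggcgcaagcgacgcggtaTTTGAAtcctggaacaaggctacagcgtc
PLK1, chr16:23678739-23678888, plus strand: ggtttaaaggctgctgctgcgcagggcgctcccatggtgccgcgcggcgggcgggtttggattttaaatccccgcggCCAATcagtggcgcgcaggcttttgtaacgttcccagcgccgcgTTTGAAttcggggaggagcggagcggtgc
MKI67, chr10:128126424-128126573, minus strand: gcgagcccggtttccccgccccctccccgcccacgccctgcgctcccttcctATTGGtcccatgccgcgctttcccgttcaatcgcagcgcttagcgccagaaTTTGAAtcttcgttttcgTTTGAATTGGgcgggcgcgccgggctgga
HMMR, chr5:163460482-163460631, plus strand: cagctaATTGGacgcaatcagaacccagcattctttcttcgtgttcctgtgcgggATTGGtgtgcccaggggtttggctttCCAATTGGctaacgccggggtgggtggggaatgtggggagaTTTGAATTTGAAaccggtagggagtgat
CENPE, chr4:103198344-103198493, minus strand: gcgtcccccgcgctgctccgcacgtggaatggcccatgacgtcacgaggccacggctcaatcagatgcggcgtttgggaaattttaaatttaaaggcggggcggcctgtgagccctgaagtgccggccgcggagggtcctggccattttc
In CCNB2 and PLK1 the CHR begins 29 bases before the start, with 3 CCAAT boxes upstream of it in the printed part of CCNB2 and 1 in PLK1. MKI67 holds a CHR at 47 and another at 29 bases before the start, the latter sharing letters with a CCAAT box on the opposite strand. HMMR holds 2 CHR matches side by side, at 28 and 22 bases before the start. A match is a run of letters and not a measured binding site.

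**Figure D2:**
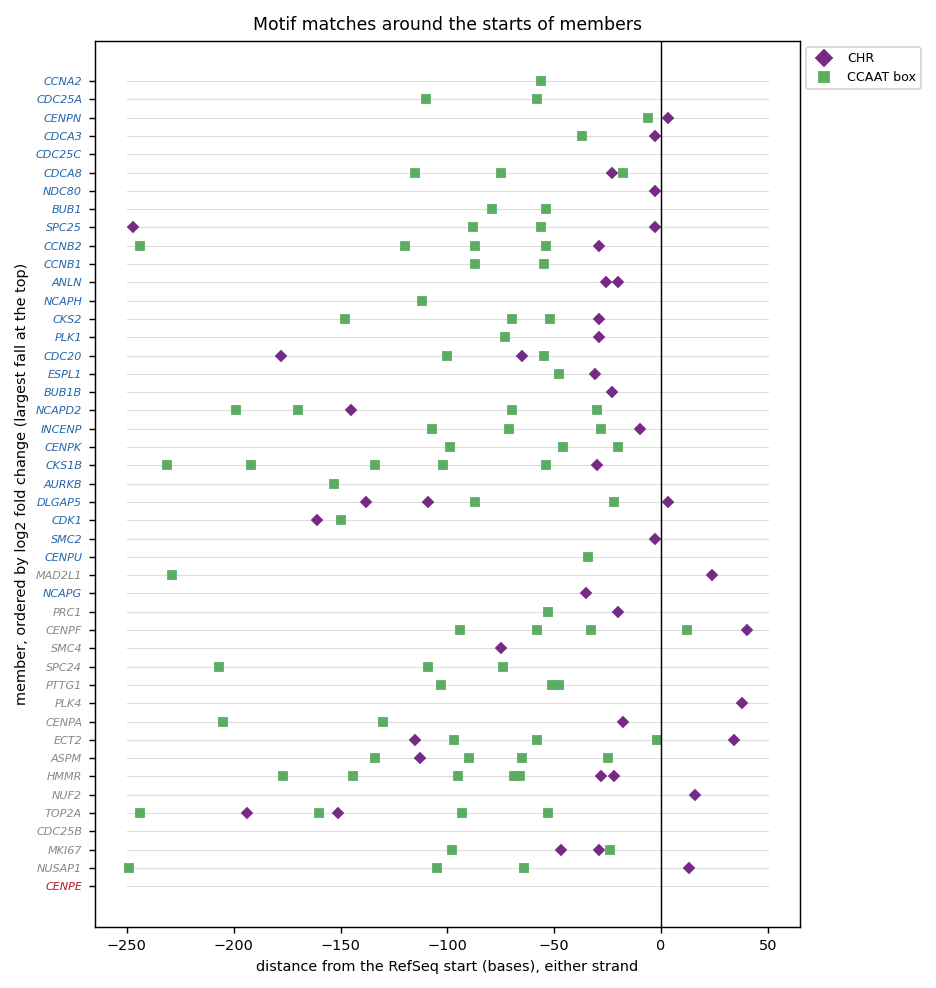
Positions of CHR (diamonds) and CCAAT (squares) matches on either strand in the 45 member promoter windows, by distance in bases from the RefSeq start, with members ordered by log2 fold change under TMM from the largest fall at the top and names coloured by call (blue lower, red higher, grey not called). Diamonds lie within 50 bases before the start in 18 members, with members that fell and members not called among them.

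Of the 10 genes for CDK1, its cyclins and their regulators 9 fell and 1 was not called, with a median log2 fold change of -0.30, where 55.6% of all genes of like mean count were lower. CCNA2 and CDC25A had the largest falls of the 57 members, while CDK1 and CKS1B fell by less than the members' median. CCNA2, which encodes cyclin A2, lies on chromosome 4 from 121816444 to 121823883 on GRCh38.p14, on the minus strand. It had 3204, 3536 and 3435 normalized counts in untreated and 2199, 2207 and 2327 in VPA-treated libraries. Each VPA-treated library was well below each untreated one, and the level fell by 33.8%. The log2 fold change was -0.60 (standard error 0.045, adjusted p = 1.87e-10, edgeR), and it stayed at -0.32 with ribosomal protein scaling. An exon of EXOSC9 on the opposite strand overlaps CCNA2, and the libraries keep strand, while whether the counting used it is not given in the sources used here. CDK1, a kinase that cyclin A2 binds, had 2132, 2091 and 2190 normalized counts in untreated and 1816, 1980 and 1951 in VPA-treated libraries. Its fall was smaller, at a log2 fold change of -0.16 (standard error 0.045, adjusted p = 0.0042, edgeR), and the sign turned to 0.12 with ribosomal protein scaling.

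The B-type cyclins fell by like amounts. CCNB1 had 4409, 5046 and 4925 normalized counts in untreated and 3851, 3973 and 3834 in VPA-treated libraries, a log2 fold change of -0.30 (standard error 0.046, adjusted p = 7.18e-06, edgeR). CCNB2 had 1793, 1909 and 2032 in untreated and 1411, 1591 and 1608 in VPA-treated libraries, a log2 fold change of -0.32 (standard error 0.055, adjusted p = 4.00e-05, edgeR). The groups did not overlap in either gene. The CKS proteins, small subunits that bind CDK1, differed in how clear the fall was. CKS2 had 2367, 2280 and 2391 normalized counts in untreated and 2038, 1823 and 1899 in VPA-treated libraries, a log2 fold change of -0.29 (standard error 0.046, adjusted p = 1.34e-05, edgeR). CKS1B had 1979, 1991 and 1703 in untreated and 1779, 1672 and 1550 in VPA-treated libraries, with overlapping groups and a log2 fold change of -0.18 (standard error 0.060, adjusted p = 0.013, edgeR). That call was lost without untreated replicate 2 (adjusted p = 0.065) and without VPA-treated replicate 3 (adjusted p = 0.073) in the same test. GENCODE lists 7 pseudogenes with the name of CKS1B, and a read that matches more than 1 place is not counted.

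The CDC25 phosphatases, which remove the inhibitory phosphates that WEE1 places, did not move alike. CDC25A had 4899, 5079 and 4997 normalized counts in untreated and 3692, 3648 and 3538 in VPA-treated libraries, a log2 fold change of -0.46 (standard error 0.039, adjusted p = 1.33e-09, edgeR). CDC25C had 523, 540 and 627 in untreated and 433, 423 and 433 in VPA-treated libraries, a log2 fold change of -0.39 (standard error 0.070, adjusted p = 4.87e-05, edgeR). CDC25B had 2013, 1968 and 1953 in untreated and 2124, 2032 and 1968 in VPA-treated libraries. Its groups overlapped, with a log2 fold change of 0.046 and a 95% interval of -0.040 to 0.13. WEE1 fell with a log2 fold change of -0.22 (adjusted p = 0.0017, edgeR) and, with CDK1 and CKS1B, was 1 of the 3 genes of this group whose sign turned with ribosomal protein scaling.

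**Figure D3:**
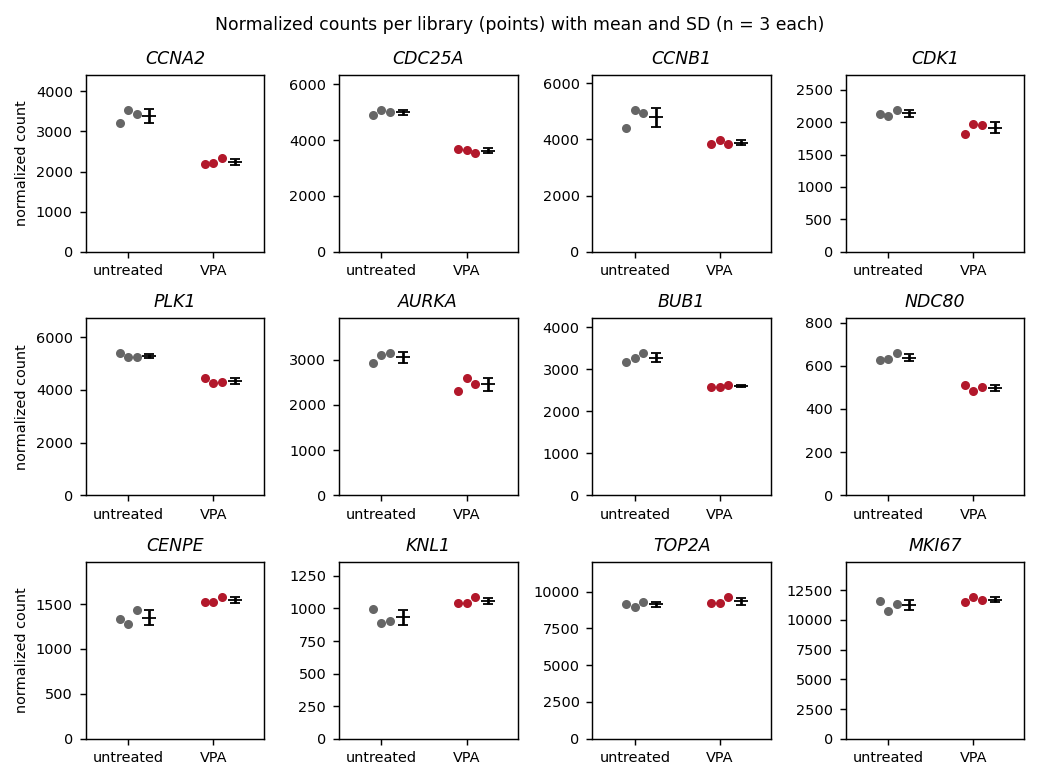
Normalized counts (TMM, scaled to the mean library) in each library for 12 members, with untreated libraries in grey, VPA-treated libraries in red, and the mean and SD of each group (n = 3) beside them, on axes that start at 0. CCNA2 falls from 3392 to 2244 on average, CENPE rises from 1351 to 1543, and the groups overlap in TOP2A and MKI67. Ribosomal protein scaling turns the sign of CDK1 alone among these 12.

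The ratio of 2 members within a library does not depend on the scaling, so pairs were also compared in this way, with an exact two-sided permutation test over the libraries, whose smallest p for 3 against 3 is 0.1. There were 13 pairs, 8 of them paralogs and 5 picked after the values were seen, and no pair could pass 0.05 in this test. The log2 ratio of CDC25A to CDC25B was 1.28, 1.37 and 1.36 in untreated and 0.80, 0.84 and 0.85 in VPA-treated libraries. This difference of -0.51 was larger than the spread within groups (standard error 0.031, exact permutation p = 0.1, adjusted p = 0.186 over the 13 pairs). CDC25C to CDC25B differed by -0.43 (standard error 0.097), and PLK1 to PLK4 by -0.25 (standard error 0.065), with groups apart and the same p-values. The ratio of CCNB1 to CCNB2 differed by 0.015 with a standard error of 0.069, and that of CDC25A to CDC25C by -0.075 with a standard error of 0.082, both with overlapping groups. CKS1B to CKS2, BUB1 to BUB1B and AURKA to AURKB also overlapped, with differences of 0.11, -0.10 and -0.14 and standard errors of 0.10, 0.056 and 0.11. Among the pairs picked after the values were seen, which are a description, CCNA2 to CDK1 differed by -0.44 (standard error 0.062), from 0.59, 0.76 and 0.65 in untreated to 0.28, 0.16 and 0.25 in VPA-treated libraries.

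PLK1 and AURKA fell and PLK4 was not called, where 52.5% of all genes of like mean count were lower. PLK1, the Polo-like kinase of mitotic entry and spindle assembly, had 5387, 5242 and 5246 normalized counts in untreated and 4461, 4257 and 4321 in VPA-treated libraries, a log2 fold change of -0.28 (standard error 0.039, adjusted p = 1.75e-06, edgeR). AURKA, the Aurora kinase of spindle poles, had 2915, 3104 and 3136 in untreated and 2305, 2596 and 2452 in VPA-treated libraries, a log2 fold change of -0.32 (standard error 0.047, adjusted p = 4.76e-06, edgeR). The groups were apart in both. PLK4, which starts centriole duplication, had 1119, 1116 and 1189 in untreated and 1090, 1065 and 1191 in VPA-treated libraries. Its log2 fold change was -0.033 with a 95% interval of -0.14 to 0.070, and its sign turned with upper quartile, library totals and ribosomal protein scaling.

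All 4 genes of the chromosomal passenger complex, which corrects faulty attachments at centromeres, fell, where 60.3% of all genes of like mean count were lower. CDCA8, which encodes borealin, had 2351, 2475 and 2684 normalized counts in untreated and 1831, 1943 and 2015 in VPA-treated libraries, a log2 fold change of -0.38 (standard error 0.050, adjusted p = 1.29e-06, edgeR). AURKB, the kinase of the complex, had 3429, 3253 and 3295 in untreated and 3119, 2822 and 2905 in VPA-treated libraries, a log2 fold change of -0.17 (standard error 0.044, adjusted p = 0.0016, edgeR). INCENP, its scaffold, and BIRC5, which encodes survivin, had log2 fold changes of -0.20 and -0.21 with groups apart. With ribosomal protein scaling the sign turned in AURKB, INCENP and BIRC5 and not in CDCA8.

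Of the 5 checkpoint genes 4 fell, where 55.6% of all genes of like mean count were lower. BUB1, a checkpoint kinase at kinetochores, had 3171, 3275 and 3371 normalized counts in untreated and 2577, 2581 and 2613 in VPA-treated libraries, a log2 fold change of -0.34 (standard error 0.040, adjusted p = 2.64e-07, edgeR). BUB1B, which encodes BUBR1 of the mitotic checkpoint complex, had 2110, 2226 and 2407 in untreated and 1791, 1898 and 2032 in VPA-treated libraries, a log2 fold change of -0.24 (standard error 0.053, adjusted p = 5.50e-04, edgeR). BUB3, their binding partner, and TTK, the kinase MPS1, fell by 0.30 and 0.21 on the log2 scale. MAD2L1, which encodes MAD2, was at -0.11 with an adjusted p of 0.056 in edgeR and overlapping groups, and passed without untreated replicate 1 (adjusted p = 0.0027) and without VPA-treated replicate 3 (adjusted p = 0.011). With ribosomal protein scaling the sign turned in BUB1B, TTK and MAD2L1. BUB1B shares exons with the readthrough gene BUB1B-PAK6.

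Of the 5 genes of APC/C activation and anaphase 4 fell and PTTG1 was not called, against 60.3% lower among all genes of like mean count. CDCA3 was listed in this group, though it promotes the loss of WEE1 at mitotic entry. It had 1477, 1383 and 1529 normalized counts in untreated and 1145, 1123 and 1064 in VPA-treated libraries. Its log2 fold change was -0.40 (standard error 0.050, adjusted p = 6.05e-07, edgeR). CDC20, the mitotic activator of the APC/C, and UBE2C, its ubiquitin-conjugating enzyme, had log2 fold changes of -0.27 and -0.30, with groups apart. ESPL1, which encodes separase, was at -0.25, and PTTG1, which encodes its inhibitor securin, at -0.048 with a standard error of 0.044. With ribosomal protein scaling the sign turned in CDC20, ESPL1 and PTTG1.

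The outer kinetochore was the group with changes in both directions, with 2 genes lower, 2 higher and 3 not called among 7, where 43.6% of all genes of like mean count were lower. KNL1, the large scaffold that recruits the BUB proteins, had 998, 890 and 906 normalized counts in untreated and 1041, 1043 and 1088 in VPA-treated libraries, a log2 fold change of 0.18 (standard error 0.054, adjusted p = 0.0054, edgeR). Without untreated replicate 2 its adjusted p was 0.051. CENPE, a kinetochore motor that carries chromosomes to the spindle equator, had 1336, 1278 and 1438 in untreated and 1527, 1523 and 1579 in VPA-treated libraries, a log2 fold change of 0.19 (standard error 0.049, adjusted p = 0.0018, edgeR). In both genes every VPA-treated library was above every untreated one. NDC80, which binds microtubules, had 626, 630 and 657 in untreated and 509, 482 and 504 in VPA-treated libraries, a log2 fold change of -0.36 (standard error 0.058, adjusted p = 1.71e-05, edgeR). SPC25 had 732, 781 and 712 in untreated and 582, 566 and 633 in VPA-treated libraries, a log2 fold change of -0.32 (standard error 0.060, adjusted p = 8.69e-05, edgeR).

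NUF2 and SPC24, which complete the NDC80 complex, had log2 fold changes of 0.020 and -0.050 with standard errors of 0.056 and 0.051, and CENPF was at -0.064 with 0.042. The sign turned with another scaling in SPC24 and CENPF. Within libraries, the log2 ratio of NDC80 to NUF2 was -0.29, -0.36 and -0.35 in untreated and -0.60, -0.78 and -0.76 in VPA-treated cells, and that of SPC25 to SPC24 differed by -0.27 (standard error 0.074). The groups were apart in both ratios. The log2 ratio of KNL1, which rose, to NDC80, which fell, differed by 0.54 (standard error 0.070). These 3 pairs were picked after the values were seen, so that their differences are a description.

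Of the 7 inner kinetochore and centromere genes 6 fell and 1 was not called, where 36.9% of all genes of like mean count were lower. CENPN, which reads the CENP-A nucleosome, had 901, 951 and 853 normalized counts in untreated and 697, 692 and 663 in VPA-treated libraries, a log2 fold change of -0.40 (standard error 0.056, adjusted p = 2.28e-06, edgeR). CENPH had 745, 785 and 741 in untreated and 570, 580 and 573 in VPA-treated libraries, a log2 fold change of -0.40 (standard error 0.055, adjusted p = 2.00e-06, edgeR). CENPM had 1106, 1186 and 1202 in untreated and 957, 861 and 875 in VPA-treated libraries, a log2 fold change of -0.38 (standard error 0.054, adjusted p = 3.66e-06, edgeR). These are structural subunits of the centromere-bound network, and the groups were apart in each. CENPK, CENPU and MIS18A, the last a factor in loading CENP-A, fell by 0.19, 0.15 and 0.14 on the log2 scale. These smaller falls lost their call without a single library, CENPK without untreated replicate 3 (adjusted p = 0.057) or VPA-treated replicate 3 (0.053), CENPU without VPA-treated replicate 1 (0.056), and MIS18A without untreated replicate 2 (0.101) or VPA-treated replicate 3 (0.079), by edgeR. CENPA itself, the centromeric histone H3 variant, was at 552, 537 and 536 in untreated and 586, 506 and 517 in VPA-treated libraries, a log2 fold change of -0.014 with a 95% interval of -0.14 to 0.11. With ribosomal protein scaling the sign turned in CENPA, CENPK, CENPU and MIS18A. Exons of CMC2 overlap CENPN on the opposite strand, and exons of SLC35F6 overlap CENPA on the same strand.

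Of the spindle and cytokinesis genes 3 of 8 fell and 5 were not called, where 57.3% of all genes of like mean count were lower. ANLN, which encodes anillin of the cleavage furrow, TPX2, the activator of Aurora A, and DLGAP5, a microtubule-binding protein, had log2 fold changes of -0.29, -0.25 and -0.17, and the call of DLGAP5 was lost without untreated replicate 2 (adjusted p = 0.056, edgeR) and without VPA-treated replicate 1 (adjusted p = 0.059, edgeR). ASPM, a spindle pole protein, was at 0.0048, HMMR, a spindle-associated protein, at 0.010, ECT2, the exchange factor of cytokinesis, at -0.013 and NUSAP1, a microtubule-bundling protein, at 0.079, with an adjusted p of 0.044 in edgeR without VPA-treated replicate 1. Their standard errors were 0.042 to 0.053. PRC1, the crosslinker of the spindle midzone, had 7663, 7985 and 8196 normalized counts in untreated and 7364, 7529 and 7641 in VPA-treated libraries, with groups just apart, a log2 fold change of -0.081 (adjusted p = 0.083, edgeR). It passed without untreated replicate 1 (adjusted p = 0.014). Of these 8 genes only ANLN stayed negative and only NUSAP1 stayed positive under all 5 scalings.

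Among condensin and chromosome genes 4 of 7 fell (57.1%), close to the 60.3% lower among all genes of like mean count. NCAPD2 and NCAPH, subunits of condensin I, were lower and did not overlap between groups. NCAPD2 had 6674, 6982 and 6901 normalized counts in untreated and 5899, 5805 and 5739 in VPA-treated libraries, a log2 fold change of -0.24 (standard error 0.039, adjusted p = 1.74e-05, edgeR). NCAPH was at -0.29 with a standard error of 0.048, and NCAPG of the same complex at -0.11 with an adjusted p of 0.033, which was above 0.05 without untreated replicate 1 (0.062), untreated replicate 3 (0.087), VPA-treated replicate 1 (0.060) or VPA-treated replicate 2 (0.140), by edgeR. The core subunits SMC2 and SMC4 were at -0.16 (adjusted p = 0.0031) and -0.053 (adjusted p = 0.257) in the same edgeR test. TOP2A, the topoisomerase that untangles sister chromatids, had 9127, 8981 and 9319 in untreated and 9226, 9208 and 9633 in VPA-treated libraries, a log2 fold change of 0.033 with a 95% interval of -0.044 to 0.11. MKI67, which encodes the proliferation marker Ki-67, had 11548, 10749 and 11367 in untreated and 11465, 11912 and 11691 in VPA-treated libraries, a log2 fold change of 0.059 with a 95% interval of -0.022 to 0.14. These 2 genes, the most counted of the 57, had overlapping groups and values above 0 under all 5 scalings, while NCAPH was the sole member of this group below 0 under all 5.

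FOXM1, a transcription factor that activates many genes of this list, had 5795, 6005 and 6016 normalized counts in untreated and 5110, 5089 and 4986 in VPA-treated libraries. The fall was small and clear of the spread between libraries, at a log2 fold change of -0.23 (standard error 0.039, adjusted p = 2.26e-05, edgeR). Of all genes of like mean count 60.3% were lower, and FOXM1 stood 0.073 below the median of its class. With library totals it was still lower (-0.099, adjusted p = 0.024), and with ribosomal protein scaling it was at 0.045.

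**Figure D4:**
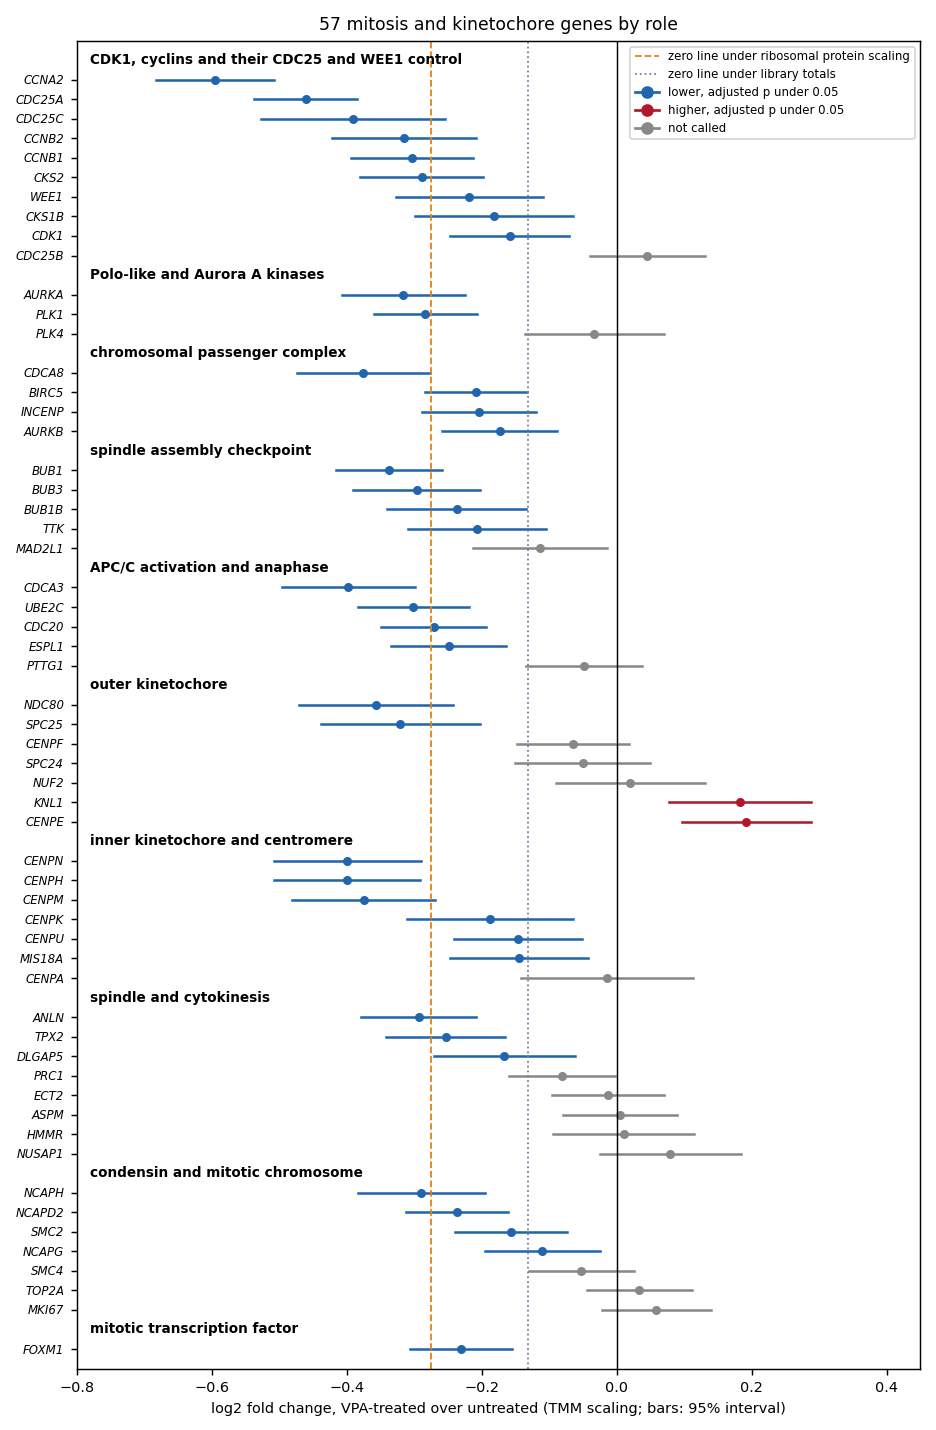
Log2 fold change (VPA-treated over untreated, TMM scaling) of the 57 members with 95% intervals, grouped by role and coloured by call. Blue points are the 39 lower members, with all 4 genes of the passenger complex among them, and the 2 red points (higher) are KNL1 and CENPE. The dotted and dashed lines mark where 0 falls with 2 other scalings, library totals (25 members lower) and ribosomal protein genes (3 members lower).

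The share of genes that fell differed with the number of counts, so the members were read beside genes of like mean count. The 15298 tested genes were split into 4 classes of equal size by mean normalized count, and all members lay in the upper 2 classes. These classes are wide, the highest reaching 131054, while MKI67, the most counted member, averaged 11689 in VPA-treated cells. Members were not matched to genes by count within a class, so the match is rough. In the highest class, with means from 1245 to 131054, 28 of 40 members (70%) were lower, where 60.3% of all genes of the class were, and 1 was higher, where 13.2% were. In the class below it, with means from 445 to 1245, 11 of 17 members (64.7%) were lower, where 36.9% of all genes were, and 1 was higher, where 27.1% were. The median log2 fold change was -0.22 for members and -0.16 for all genes in the highest class, and -0.19 against -0.053 in the class below. Below the median of their own class lay 26 of the 40 and 11 of the 17 members, 37 of 57 in all. This count was the same under every scaling by construction, since a scaling moves all genes by 1 shift. In the highest of the 4 classes 14 members were under the lower quartile of the class and 7 over its upper quartile. CENPE stood 0.35 and NUSAP1 0.24 above their class medians, and CCNA2 stood 0.44 below. The remaining 19 members of that class lay between its quartiles.

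**Figure D5:**
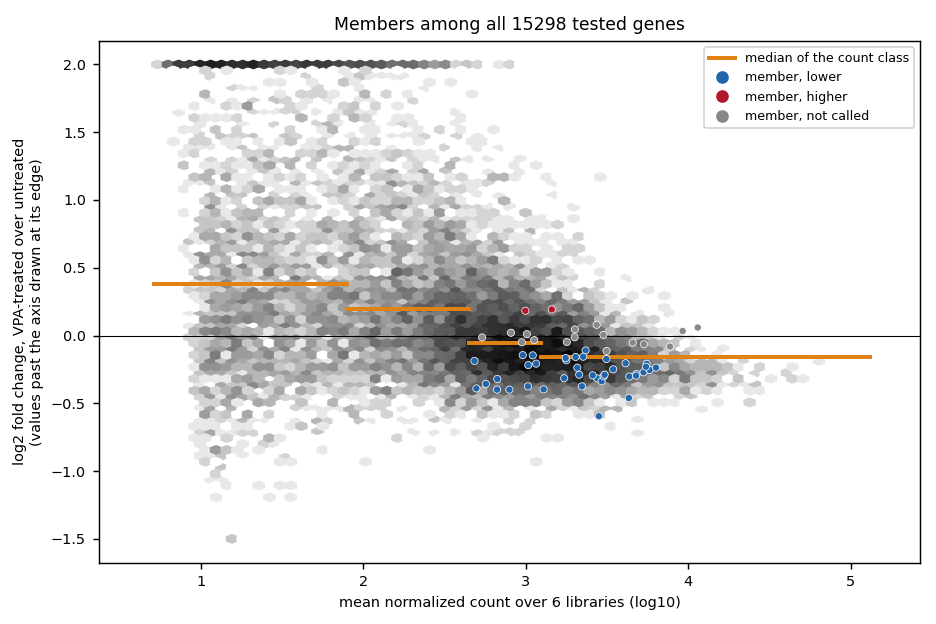
Log2 fold change under TMM (vertical axis) against mean normalized count over the 6 libraries (horizontal axis, log10) for all 15298 tested genes (grey, darker where more genes lie) and the 57 members (points coloured by call), with the median of each of 4 count classes in orange and values past the axis drawn at its edge. The class median drops from 0.38 among the least counted genes to -0.16 in the highest class, and 37 of the 57 members lie below the median of their class.

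The size of the falls varied with transcript length among the members. Of the 19 members with the shortest canonical transcripts in GENCODE 44, 616 to 2093 bases, 16 fell, compared with 13 of the next 19 and with 10 of the 19 longest, 3844 to 12716 bases, which also held both members that rose. Among all genes of the same length ranges in the upper 2 count classes 58.6%, 52.5% and 41.8% were lower, which ran in the same order. The median log2 fold changes of the members in these length ranges were -0.29, -0.21 and -0.11. Over the 57 members Spearman's rho between transcript length and log2 fold change was 0.33, and that for the GC content of the transcript was -0.35. The members share the libraries, and length and GC content were themselves related (rho = -0.26). Over the 7630 genes with a length in the same 2 count classes rho was 0.21 for length and -0.046 for GC content, and genes in the 3 length ranges had medians of -0.17, -0.14 and -0.069. The part of length and GC content in the members' changes was not tested.

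Other mitosis genes, the APC/C subunits among them, were read in the same way with TMM. These lists too were chosen with earlier results of these data known. Of 91 tested genes in 6 further lists (APC/C, other kinetochore and checkpoint genes, other mitotic kinases, other spindle genes, other condensin genes, and DREAM with its partners) 56 fell and 7 rose, with a median log2 fold change of -0.18. That is 61.5% lower, beside 45.2% of all genes of like mean count and 30.0% of all tested genes. APC/C subunits and regulators gave 11 of 17 lower and 0 higher in edgeR, led by ANAPC15 at -0.52, where 45.5% of genes of like mean count were lower. Other kinetochore and checkpoint genes gave 16 lower and 3 higher of 29, led by PMF1 at -0.86, beside 39.1% lower at like mean count. DREAM, MuvB and MYBL2 gave 10 lower and 2 higher of 15, led by TFDP1 at -0.38, beside 44.9%. Mitotic kinesins gave 7 of 11 lower, with KIF2C at -0.49, beside 49.9%. Among G1/S and replication genes 24 of 26 fell, beside 57.6% of genes of like mean count, with a median of -0.32 and UNG at -0.76, UNG being a uracil-DNA glycosylase of replicating cells. All of these values were read with TMM, and library totals or ribosomal protein scaling moves them upwards together with all genes. The difference between the replication and the mitosis lists was not tested.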

How the data were processed

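RNA-seq reads of 6 HEK293T libraries, 3 untreated and 3 after 1 day in 1 mM VPA, were deposited by the authors as whole-number counts per gene, made with STAR 2.7.10b and HTSeq 2.0.1 on hg38 (GRCh38) per the submitters' processing notes. The libraries were strand-specific per the labels, and which annotation was counted and whether strand was used is not given in the sources used here. The 5 summary lines of each file stayed out of library sizes and tests. Reads without a gene made up 6.80% to 7.69%, ambiguous reads 1.97% to 2.10%, and reads matching several places 2.81% to 2.92%.

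The counts were fitted with edgeR 4.0.16 in R 4.3.3 (filterByExpr with a minimum count of 10, TMM, robust quasi-likelihood test, prior count 0.125, 1 condition term), and p-values were adjusted over all 15298 tested genes by Benjamini-Hochberg at 0.05. The fit was tested on simulated data. These p-values set the difference between groups against the spread between these libraries, estimated for each gene with help from all tested genes. Normalized counts are counts divided by the TMM-scaled library size, multiplied by the mean of those sizes. Log2 fold changes are VPA-treated over untreated. Their standard errors were derived from the estimate and the F statistic of the test, and 95% intervals are normal intervals from these. Such intervals can be narrower than the test allows. That of PRC1, -0.16 to -0.0027, leaves out 0 while its unadjusted p was 0.055 by edgeR. Alternatives were other scalings (DESeq2 size factors, upper quartile, library totals, and ribosomal protein genes), DESeq2 1.42.0, other filters, a prior count of 2, an FDR of 0.01, a replicate block and leaving out each library. Within-library ratios were added after the data were seen.

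The members and the other gene lists were chosen with earlier results of these data known. Values in every library were given for the 12 called members with the largest log2 fold changes, the 4 with the highest mean counts, CDK1, CCNB1, PLK1, AURKA, AURKB, FOXM1 and pairs of paralogs. Those of KNL1, CENPE and CENPA were added after their values were seen. Of the 57 members 18 have a pseudogene of their name and 19 overlap an exon of another gene in GENCODE 44, and their counts are less certain. The 39 without such a pseudogene had 24 lower, 2 higher and a median of -0.20. Transcript length and GC content were those of the GENCODE 44 canonical transcript.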

Additional observations from a re-analysis of the deposited data

How the results depend on the processing

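The counts of members that rose and fell, 2 and 39 with TMM, depended most on the scaling of the libraries. With upper quartile scaling they were 6 and 31 with a median of -0.14, with library totals 10 and 25 with a median of -0.076, and with ribosomal protein scaling 23 and 3 with a median of 0.068. DESeq2 size factors gave 2 and 41, the DESeq2 test 2 and 41, no filter 2 and 41, at least 10 counts in every library 2 and 38, a mean of at least 50 counts 2 and 37, and an FDR of 0.01 2 and 34. A prior count of 2 and a fit that was not robust changed no call. Leaving out a library gave 1 to 3 higher, 36 to 40 lower and a median of -0.23 to -0.20, and the 1 came without untreated replicate 2, where KNL1 lost its call. Libraries with the same replicate number were not taken as pairs, since the labels name no shared batch. Their deviations from the group means correlated by 0.139, 0.021 and 0.080. Libraries of different number correlated by -0.107 to 0.031, so 0.139 and 0.080 lay above all of these. Whether libraries of equal number were handled together was not tested. The fit with the replicate number as a block gave 3 higher and 42 lower, beside 35.0% and 33.3% of all tested genes. It added MAD2L1, PRC1 and CENPF to those lower and NUSAP1 to those higher, and no member lost its call. The adjusted p of CKS1B was 1.48e-05 in this edgeR fit. Differences under about 0.1 on the log2 scale were near the limit of detection with 3 libraries a group, where standard errors of the members were 0.039 to 0.070.

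The sign turned with ribosomal protein scaling in 28 members, at AURKB 0.10, BIRC5 0.066, BUB1B 0.038, CDC20 0.0035, CDK1 0.12, CENPA 0.26, CENPF 0.21, CENPK 0.087, CENPU 0.13, CKS1B 0.092, DLGAP5 0.11, ECT2 0.26, ESPL1 0.026, FOXM1 0.045, INCENP 0.070, MAD2L1 0.16, MIS18A 0.13, NCAPD2 0.038, NCAPG 0.17, PLK4 0.24, PRC1 0.19, PTTG1 0.23, SMC2 0.12, SMC4 0.22, SPC24 0.22, TPX2 0.022, TTK 0.068 and WEE1 0.056. With library totals it turned in 10, at CENPA 0.12, CENPF 0.067, ECT2 0.12, MAD2L1 0.018, NCAPG 0.021, PLK4 0.098, PRC1 0.050, PTTG1 0.084, SMC4 0.079 and SPC24 0.081. With upper quartile scaling it turned in 7, at CENPA 0.051, CENPF 0.00093, ECT2 0.053, PLK4 0.032, PTTG1 0.017, SMC4 0.013 and SPC24 0.015. By construction these scalings move all genes by 1 shift. Under the other settings the sign turned only in members within 0.04 of 0, which were not called. These were ASPM -0.020, HMMR -0.014 and NUF2 -0.0042 by DESeq2, ASPM -0.017, HMMR -0.011 and NUF2 -0.0014 without a filter, and ASPM -0.0091 and HMMR -0.0037 with DESeq2 size factors, where the median of all genes was -0.0081. With at least 10 counts in every library CENPA was at 0.0081 and ECT2 at 0.0096, and with a mean of at least 50 counts CENPA was at 0.020, ECT2 at 0.021, PLK4 at 0.00085 and the median of all genes at -0.00061. Leaving out a library gave ranges across 0 for ASPM (-0.032 to 0.029), CENPA (-0.084 to 0.025), ECT2 (-0.035 to 0.0010), HMMR (-0.037 to 0.054), NUF2 (-0.020 to 0.060) and the log2 ratio of CCNB1 to CCNB2 (-0.039 to 0.059).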
